A study of Mus musculus with 6 samples.

Results

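Motile cilia genes encode the parts of the beating cilium and the regulators that switch its assembly on. A list of 35 of them was read in whole mouse lung. They were chosen by symbol, as genes of the ciliated cell, with earlier results of these data known. A named probe was found for 33 of the 35 among the 19749 genes named on the array. Armc4, a docking protein for outer dynein arms, and Ccdc40, a partner of Ccdc39 in the axonemal ruler, had none and are not analysed here. Of the 33, 32 were well above background on all 6 arrays. Dnah9, an outer arm dynein heavy chain, was well above background on 1 array alone, that of wild type lung given PBS.

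The arrays were 1-colour Agilent whole-genome arrays, each read with Cy3-labelled total RNA of whole lung. There were 3 genotype labels, all given with the C57BL/6 strain: wild type, FcRg KO (FcRg-/-) and FceRIa KO (FceRIa-/-). Mice of each label received PBS, the control, or mouse histamine-releasing factor (HRF, a secreted protein that can bind IgE) through the nose, which gives 6 groups of 1 array each. FcRg is the signalling chain shared by several Fc receptors, encoded by Fcer1g, and FceRIa is the IgE-binding chain of the high-affinity IgE receptor, encoded by Fcer1a. The labels give no dose, time, age or number of mice behind an array. The HRF samples are described with the form mHRF-His.

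The arrays each held 59305 spots other than controls, of which 67.5% to 79.6% were well above background, and 0 were saturated. A level is given throughout on the log2 scale, as the processed signal over the 75th percentile of its array, so a level of 0 marks that percentile. A difference is one level minus another, and 1 on this scale is 2-fold. The wild type PBS array stood apart at the dim end, with a median signal of 142 against 86.6 to 119 on the other arrays. The targeted genes did not bear out the knockout labels. Under the FcRg KO label Fcer1g had a level of 4.14 with PBS and 4.32 with HRF, against 3.93 and 4.61 in wild type. Under the FceRIa KO label Fcer1a was at -0.90 and -1.16, against -4.48 and -4.19 in wild type. The place of either probe relative to the deleted part of its gene is not known, and outside that part it would check nothing, so "FcRg KO" and "FceRIa KO" below are names of labels. With 1 array per group, differences between a pair of arrays lack any replicate check, and precision is limited by how few arrays there are.

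Motile cilia line the conducting airways and move mucus towards the throat. Each is built on an axoneme of microtubule doublets around a central pair. Dynein arms on the doublets make the strokes, while radial spokes, nexin links and the central pair shape them. The programme is set in motion in cells leaving the cell cycle by Mcidas and Ccno, and carried by the forkhead factor Foxj1 together with RFX factors, which bind X-box sequences in ciliary promoters. Ciliated cells are a small part of whole lung. A lower level in such tissue can come from fewer ciliated cells or from less RNA per cell, and these cannot be told apart here.

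The promoters show what members share in sequence. RefSeq promoters of assembly GRCm38.p6, from 250 bases before to 50 bases after the start of a transcript, were matched by symbol for 29 of the 35 members. The RFX half-site GTTGCC, or its reverse complement GGCAAC, was found in 14 of those 29 (48.3%), in 30 of 91 other motile cilia genes (33.0%) and in 11.8% of all 27025 genes in the table. A form of the X-box palindrome, GTTGC and GCAAC 3 bases apart, can overlap the half-site. It lay in 3 of 29 members (Dnaic2, Tekt2 and Tekt4) and in 0.233% of all genes. Other spacings were not searched, and the Hydin and Cfap44 stretches printed below hold both words at a wider spacing. The forkhead word GTAAACA, searched on both strands, lay in 3 of 29 (Ak7, Mlf1 and Sntn) and in 3.54% of all genes. A match is a run of letters, not a measured binding site.

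In 10 of the 14 members the half-site lay within 100 bases of the start. The 100 bases before the start are printed for 6 of them, chosen after their sequences were seen to show different arrangements. These are a repeat in Fam183b, copies in opposite orientations in Tekt1, and 1 copy within the printed bases in Hydin, Cfap44, Dnaic2 and Sntn. Cfap44 has another copy 129 bases before the start, beyond the printed stretch. Capitals mark the half-site in either orientation, and each line reads 5′ to 3′ towards the gene.
Fam183b, chr11:58801961-58802060, minus strand: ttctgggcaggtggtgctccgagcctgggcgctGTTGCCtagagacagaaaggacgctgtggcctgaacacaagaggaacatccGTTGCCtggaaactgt
Tekt1, chr11:72361883-72361982, minus strand: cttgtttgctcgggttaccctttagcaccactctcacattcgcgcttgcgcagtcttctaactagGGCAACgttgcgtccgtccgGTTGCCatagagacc
Hydin, chr8:110266877-110266976, plus strand: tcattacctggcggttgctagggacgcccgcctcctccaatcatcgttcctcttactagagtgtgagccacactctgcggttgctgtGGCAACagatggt
Cfap44, chr16:44394699-44394798, plus strand: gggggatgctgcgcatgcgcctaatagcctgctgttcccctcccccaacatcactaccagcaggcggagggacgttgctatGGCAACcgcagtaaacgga
Dnaic2, chr11:114727319-114727418, plus strand: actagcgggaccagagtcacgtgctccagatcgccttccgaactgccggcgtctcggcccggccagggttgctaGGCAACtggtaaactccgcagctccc
Sntn, chr14:13670776-13670875, plus strand: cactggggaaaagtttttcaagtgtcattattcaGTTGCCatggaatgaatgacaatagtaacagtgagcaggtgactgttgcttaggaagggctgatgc

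Over the 6 arrays the members varied about as much as all genes did. The range of a member from its lowest to its highest array had a median of 0.43, or 1.34-fold, against 1.34-fold over all 15678 genes well above background on every array. The narrowest range was 0.19 and the widest 1.30, that of Spag17. In all, 31 of 32 members ranged by less than 1, which was true of 90.3% of all genes.

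The members' median profile over the arrays was as follows, though single members departed from it. The median over members of the deviation from a gene's own mean was 0.13 on the wild type PBS array, -0.14 on the wild type HRF array, -0.10 and 0.04 for PBS and HRF under the FcRg KO label, and 0.02 and -0.00 under the FceRIa KO label. Among 33 members, 14 were highest on the wild type PBS array and 9 on the FcRg KO HRF array. Their lowest array was wild type HRF for 15 and FcRg KO PBS for 13. Over all genes, 24.9% were highest on wild type PBS, 15.4% highest on FcRg KO HRF, 22.5% lowest on wild type HRF and 13.3% lowest on FcRg KO PBS. A list of 107 other motile cilia genes, of which 85 were well above background on all arrays, had median deviations of 0.15, -0.10, -0.10, 0.05, 0.04 and -0.02 in the same order of arrays.

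**Figure D1:**
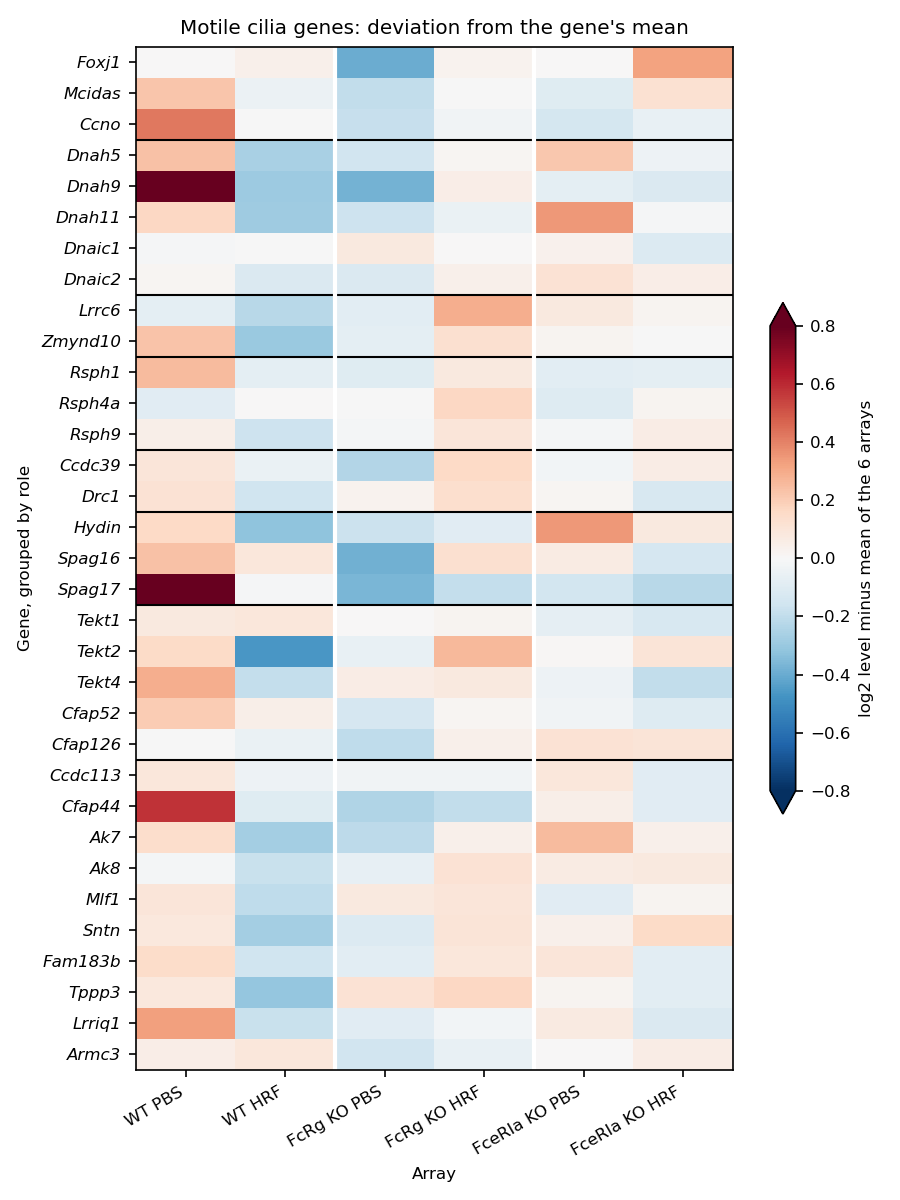
Each row is a motile cilia gene, grouped by role, and each column an array; colour gives the log2 level minus the gene's mean over the 6 arrays, with values beyond 0.8 drawn in the darkest colour. The wild type PBS column is mostly red, with 14 members at their highest, and the wild type HRF and FcRg KO PBS columns are mostly blue, with 15 and 13 members at their lowest.

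The question of the HRF comparison was how each lung stood after HRF against PBS. In wild type, 28 of 33 members were lower on the HRF array, with a median difference of -0.30, or 1.23-fold. All genes compared had a median of -0.05, and 57.3% of them were lower. At a fold of 1.5 or more, 4 members were lower, against 9.1% of all genes, and 0 were higher, against 5.46%. The 4 were Spag17, Cfap44, Tekt2 and Dnah9. Dnah9 was within background on the HRF array and is not shown to reach that fold, which leaves 3 members on the probe used. A second Cfap44 probe gave -0.40, short of 1.5-fold. A second Spag17 probe gave -0.29 and was within background on the HRF array, while Tekt2 had 1 probe. Second probes of Lrriq1 (-0.77) and Hydin (-0.61), above background on both arrays, were past 1.5-fold lower, where their brighter probes were not.

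On the arrays labelled FcRg KO the members stood the other way. There, 31 of 32 were higher after HRF, where 50.3% of all genes were higher, and the median was 0.16, or 1.12-fold, against 0.00 over all genes. None reached 1.5-fold on the probe used: 0 members were higher, against 3.52% of all genes, and 0 lower, against 3.89%. Second probes of Lrriq1 (0.71) and Spag16 (0.67), above background on both arrays, were past 1.5-fold higher. On the arrays labelled FceRIa KO, 12 members were higher and 20 lower, where 52.8% of all genes were lower. The median was -0.06, and 0 members were past 1.5-fold in either direction, where 4.03% of all genes were higher and 2.55% lower.

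Being lower after HRF in wild type and higher after HRF under the FcRg KO label was seen in 28 of 33 members, in 69 of 87 other motile cilia genes and in 27.2% of all genes. These pairs share no array. The exceptions were Foxj1, Rsph4a and Armc3, higher after HRF under all 3 labels, Tekt1, and Dnaic1. Across all genes, 16.5% were higher after HRF under all 3 labels and 20.6% lower, where 0 members were lower under all 3. Dnah9 is among the 28, though both its FcRg KO arrays were within background. Spag16 is among them too, though its direction in wild type depends on the probe.

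**Figure D2:**
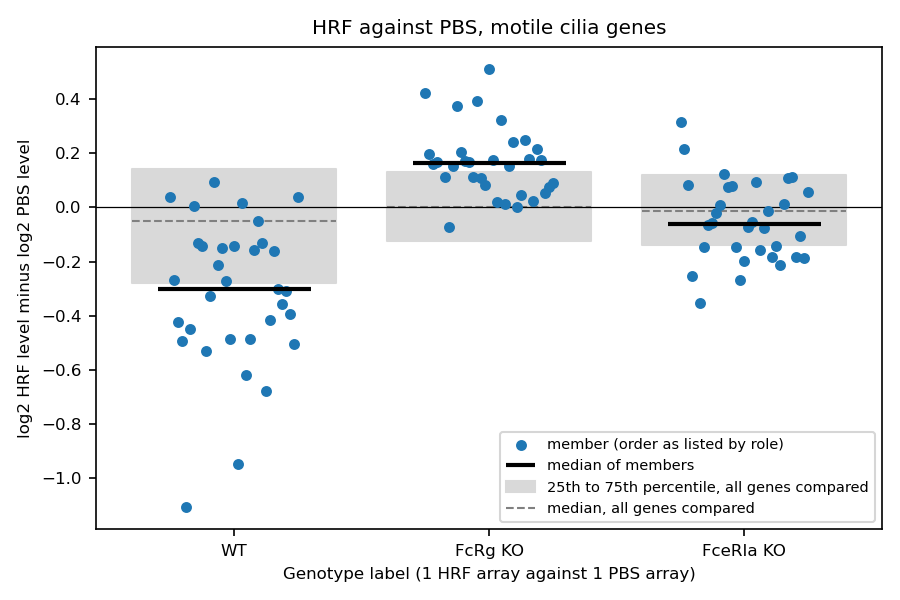
Points are members, drawn in the order of their roles, with the log2 HRF level minus the log2 PBS level on the vertical axis for each genotype label; black bars are member medians, grey boxes the 25th to 75th percentile of all genes compared. The medians are -0.30 in wild type, 0.16 for FcRg KO and -0.06 for FceRIa KO.

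The regulators came first in the order of roles, and Foxj1, the forkhead factor of the ciliated state, did not follow the others. Its level was 2.32 on the PBS and 2.36 on the HRF array of wild type, 1.92 and 2.34 under the FcRg KO label, and 2.32 and 2.64 under the FceRIa KO label. All 3 HRF arrays were above all 3 PBS arrays, by a narrow gap in wild type, while the FcRg KO PBS array was low. This order was also held by Rsph4a and by 5.95% of all genes. The reverse order, all HRF arrays below all PBS arrays, was held by 0 members and 7.32% of all genes. The average HRF effect on Foxj1 was 0.26 (SE 0.11), higher after HRF in 3 of 3 pairs, and did not pass (limma, Benjamini-Hochberg adjusted p = 0.557). With normexp background correction and quantile normalization the wild type difference of Foxj1 was -0.04 in place of 0.04, so that order did not hold there.

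Mcidas, the coactivator that starts the multiciliated programme, was at 3.75 and 3.48 in wild type on PBS and HRF, 3.33 and 3.52 under FcRg KO, and 3.43 and 3.65 under FceRIa KO. Ccno, a cyclin-like protein needed to multiply centrioles, was at 0.67 and 0.25 in wild type, 0.06 and 0.22 under FcRg KO, and 0.11 and 0.19 under FceRIa KO. For both, wild type PBS was the highest array and FcRg KO PBS the lowest. HRF was lower than PBS in wild type and higher under both KO labels.

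Among the dynein arm genes, Dnah5, an outer arm heavy chain, was at 0.99 on the wild type PBS array and 0.50 on the HRF array. Under FcRg KO it was at 0.60 and 0.77, and under FceRIa KO at 0.97 and 0.72. Its wild type PBS and FceRIa KO PBS arrays were the highest, and the wild type HRF array the lowest. Dnah11, another outer arm heavy chain, was at -0.50 and -0.95 in wild type, -0.83 and -0.72 under FcRg KO, and -0.32 and -0.67 under FceRIa KO. The intermediate chain Dnaic1 kept between 0.47 and 0.66 on all 6 arrays, one of the narrower ranges. Dnaic2, its partner, was at 0.33 and 0.20 in wild type, 0.20 and 0.35 under FcRg KO, and 0.43 and 0.37 under FceRIa KO. Over the dynein arm genes the median HRF difference was -0.45 in wild type (5 genes), 0.13 under FcRg KO (4 genes) and -0.20 under FceRIa KO (4 genes).

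Dnah9 had a level of -6.04 on the wild type PBS array and measured -7.23 to -6.80 elsewhere, where it was not well above background. Its wild type PBS level was set against the lowest signal well above background on each other array. That signal is a stand-in and not a strict limit, since a probe within background can lie above it. By this stand-in, wild type PBS was 1.47-fold above wild type HRF, 1.40-fold above FcRg KO PBS and 1.15-fold above FceRIa KO HRF. These stand-in folds are below 1.5, so Dnah9 is not shown to differ by that fold in any comparison.

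Zmynd10, which assembles dynein arms in the cytoplasm, was at 0.60 and 0.07 in wild type, 0.29 and 0.50 under FcRg KO, and 0.39 and 0.37 under FceRIa KO. Among 26 members whose range was at least that of the members' median profile, its profile was closest to that median (Pearson r = 0.95, a description over 6 arrays that includes the gene's own list). The correlation was 0.50 for Lrrc6, 0.31 for Foxj1 and -0.15 for Rsph4a, the lowest. Lrrc6, with which it acts, was at -2.19 and -2.34 in wild type, -2.20 and -1.82 under FcRg KO, and -2.03 and -2.09 under FceRIa KO. Its FcRg KO HRF array stood above the rest.

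Of the radial spoke genes, Rsph1 was at 2.40 and 2.07 in wild type, 2.05 and 2.23 under FcRg KO, and 2.07 and 2.07 under FceRIa KO. Wild type PBS was thus highest and 4 arrays lay together. Rsph9 was at 2.58 and 2.37 in wild type, 2.52 and 2.63 under FcRg KO, and 2.52 and 2.59 under FceRIa KO. Rsph4a was at -2.09 and -1.99 in wild type, -2.0 and -1.83 under FcRg KO, and -2.10 and -1.97 under FceRIa KO. All 3 HRF arrays of Rsph4a were above all 3 PBS arrays on its brighter probe. A second, dimmer Rsph4a probe differed by -0.32 in wild type where the brighter gave 0.09, so the direction in wild type depends on the probe.

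Ccdc39, which with Ccdc40 sets the repeat along the axoneme, was at -1.38 and -1.53 in wild type, -1.71 and -1.32 under FcRg KO, and -1.50 and -1.42 under FceRIa KO. Drc1, a subunit of the nexin link, was at 2.84 and 2.56 in wild type, 2.75 and 2.86 under FcRg KO, and 2.74 and 2.59 under FceRIa KO. The FcRg KO PBS array was lowest for Ccdc39 and the wild type HRF array for Drc1.

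The central pair genes, on which the spokes press, held the widest range. Spag17 was at -3.54 on the wild type PBS array, -4.48 on wild type HRF, -4.84 and -4.67 under FcRg KO, and -4.63 and -4.70 under FceRIa KO. Only its wild type PBS level stood apart, since the other 5 arrays lay from -4.84 to -4.48, and wild type HRF was 1.93-fold below PBS. Spag16 was at -3.71 and -3.85 in wild type, -4.33 and -3.82 under FcRg KO, and -3.88 and -4.08 under FceRIa KO, with FcRg KO PBS lowest. Its HRF difference under FcRg KO was 0.51 (1.43-fold), the highest of the members compared there on the probe used. A second Spag16 probe gave 0.67, past 1.5-fold. In wild type the second probe gave 0.05 where the brighter gave -0.14, and under FceRIa KO 0.37 where the brighter gave -0.20. The direction of Spag16 under those labels thus depends on the probe. Hydin, a large protein of the central pair projection, was at -0.65 and -1.14 in wild type, -0.99 and -0.90 under FcRg KO, and -0.47 and -0.74 under FceRIa KO. A second Hydin probe gave -0.61 in wild type where the brighter gave -0.49.

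Tektins stiffen the wall of the doublet. Tekt2 was at -0.33 and -0.95 in wild type, -0.55 and -0.22 under FcRg KO, and -0.47 and -0.38 under FceRIa KO. Its wild type HRF array stood below all others, by 1.54-fold from wild type PBS. Tekt4 was at 2.0 and 1.52 in wild type, 1.77 and 1.79 under FcRg KO, and 1.67 and 1.51 under FceRIa KO. Tekt1 kept between 2.39 and 2.60 on all arrays. Cfap52 and Cfap126, which lie on or in the doublet wall, had wild type differences of -0.16 and -0.05 and FcRg KO differences of 0.15 and 0.24.

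Of the remaining axonemal and ciliary genes, 9 of 10 were lower after HRF in wild type, with a median of -0.33. Under FcRg KO 10 of 10 were higher, with a median of 0.08. Cfap44, a protein of the tether of inner dynein arms, was at -1.75 and -2.42 in wild type, -2.57 and -2.52 under FcRg KO, and -2.28 and -2.42 under FceRIa KO. As for Spag17, the wild type PBS array stood above the other 5. Tppp3, a tubulin-binding protein of ciliated cells, was at 4.59 and 4.20 in wild type, 4.62 and 4.67 under FcRg KO, and 4.53 and 4.43 under FceRIa KO, so that here the wild type HRF array alone was low.

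Fam183b was at 4.0 and 3.69 in wild type, 3.76 and 3.94 under FcRg KO, and 3.94 and 3.76 under FceRIa KO. Sntn, a protein of the ciliary tip, was at -0.78 and -1.14 in wild type, -0.97 and -0.76 under FcRg KO, and -0.82 and -0.71 under FceRIa KO. The adenylate kinase Ak7 was at -2.01 and -2.43 in wild type, -2.36 and -2.11 under FcRg KO, and -1.90 and -2.11 under FceRIa KO. These genes had wild type HRF as their lowest array.

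Mlf1 had HRF differences of -0.30, 0.02 and 0.11 in wild type, FcRg KO and FceRIa KO, Lrriq1 of -0.50, 0.07 and -0.19, Ccdc113 of -0.13, 0.00 and -0.18, and Armc3 of 0.04, 0.09 and 0.06. A second Lrriq1 probe gave -0.77, 0.71 and 0.05. The size of the Lrriq1 difference under FcRg KO and its direction under FceRIa KO thus depend on the probe. Ak8, a second adenylate kinase of cilia, is the member with many copies of its probe on the array. It was at 0.16 and -0.00 in wild type, 0.11 and 0.29 under FcRg KO, and 0.24 and 0.26 under FceRIa KO. Its 8 to 10 spots on an array had an SD of 0.03 to 0.08, so its differences of -0.16 in wild type and 0.18 under FcRg KO were larger than the spread between spots. That spread is technical and leaves out the spread between mice. Over 284 probes with 8 or more spots the median SD between spots was 0.07.

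Of the members, 9 had a second probe. Where both probes were well above background the sign of the HRF difference was the same in 17 of 24 comparisons, and the median gap between probes was 0.17. Many member differences are of that size.

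The dim end of the wild type PBS array moves with these values. Genes with a mean level under -3 had a median HRF difference of -0.31 in wild type, those from -3 to 0 had -0.09, and those at 0 or above had 0.02. The members were lower than all genes in each of these bands. At a level of 0 or above, 16 of 20 members were lower, where 46.1% of all genes were, with a median of -0.24. From -3 to 0, 8 of 9 were lower (median -0.42), where 61.2% of all genes were. Under -3, 4 of 4 were lower, where 75.1% of all genes were; of these Dnah9 was within background on the HRF array, and the other 3 had a median of -0.50. Under FcRg KO, 19 of 20 members at a level of 0 or above were higher (median 0.15), where 49.0% of all genes were. How much of the size of the dim members' differences goes with the background of that array was not tested.

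**Figure D3:**
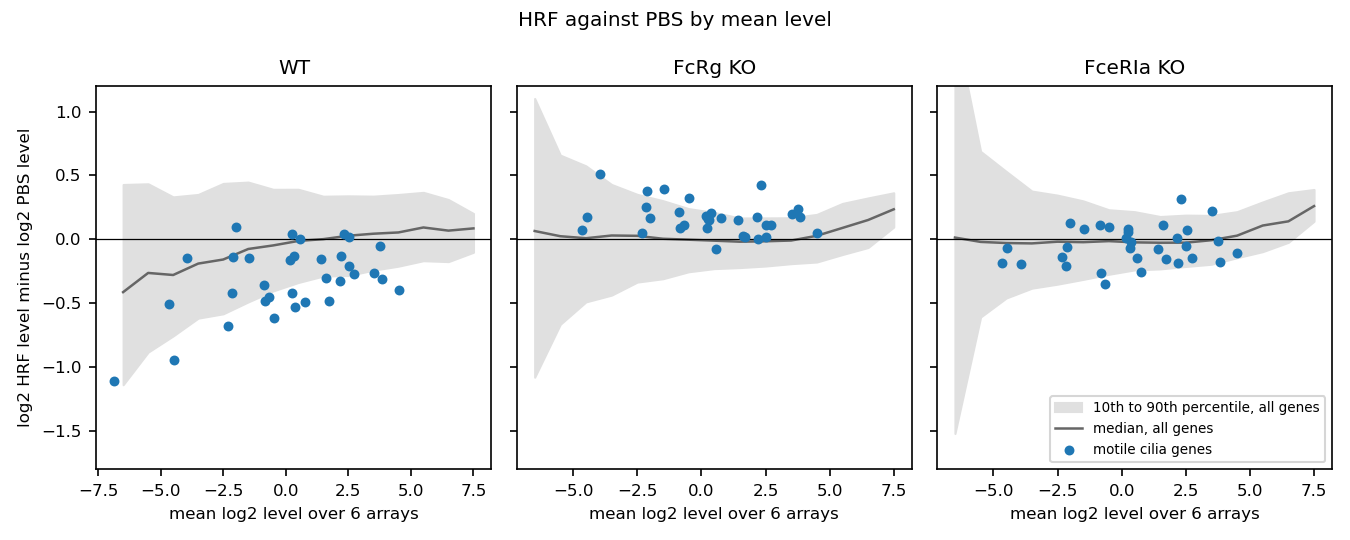
The log2 HRF minus PBS difference is plotted against the mean log2 level over the 6 arrays for each genotype label, with members as points, the median of all genes as a line and their 10th to 90th percentile as a grey band. In wild type the line sinks to -0.41 for the dimmest genes, and the members lie mostly below it at every level; under FcRg KO they lie mostly above it.

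The scaling of the arrays bears on direction. Scaled on the array's median in place of its 75th percentile, all genes compared in wild type had a median of 0.17 in place of -0.05, because the wild type PBS array has the higher median signal. The members' wild type median was then -0.08 with 19 of 33 lower. Relative to the median of all genes it was -0.25, with 27 of 33 members below that median. Under FcRg KO the members lay 0.16 above the median of all genes, 30 of 32 of them above it. These relative values are the same under both scalings by construction, since a scaling adds 1 constant per array, and so say nothing of stability.

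Between PBS arrays, where no HRF was given, the members differed as well. The FcRg KO PBS array was lower than wild type PBS for 30 of 33 members (51.4% of all genes), with a median of -0.23 and 5 at least 1.5-fold lower, against 10.7% of all genes, and 0 higher, against 2.72%. The 5 were Spag17 (-1.30), Cfap44 (-0.82), Spag16 (-0.62), Ccno (-0.60) and Dnah9. Dnah9 was within background on the FcRg KO PBS array, with a stand-in fold of 1.40, which leaves 4 members on the probe used. The FceRIa KO PBS array was lower than wild type PBS for 24 of 33 (56.6% of all genes), with a median of -0.06 and 2 at least 1.5-fold lower, against 11.4%: Spag17 (-1.09) and Dnah9. Dnah9 had a stand-in fold of 1.30 there, which leaves 1 member on the probe used. A second Spag17 probe was within background on the PBS arrays of both KO labels. None was higher by that fold (0 members, against 1.46% of all genes). These differences use the same wild type PBS array as the HRF difference of wild type. Median scaling turned the FcRg KO median to 0.04 and the FceRIa KO median to 0.17, where all genes had 0.26 and 0.19. Relative to all genes they were -0.22 and -0.03, which no such scaling can change.

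Between HRF arrays the wild type array was the low one. The FcRg KO HRF array was higher than wild type HRF for 25 of 32 members (53.7% of all genes; median 0.19) and the FceRIa KO HRF array for 22 of 32 (47.4%; median 0.14). Tekt2 was the 1 member at least 1.5-fold higher, at 0.73 under FcRg KO, where 4.58% of all genes were. Under FceRIa KO 0 members were, against 3.58%. At that fold 0 members were lower in either comparison, against 8.64% of all genes under FcRg KO and 9.16% under FceRIa KO. Beside the wild type HRF median of -0.30, then, stand medians of -0.23 between PBS arrays of wild type and FcRg KO and 0.19 between their HRF arrays.

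Other gene lists give the setting. Intraflagellar transport genes, which carry cargo along cilia of all kinds, had median HRF differences of -0.16 in wild type (23 of 28 lower), 0.03 under FcRg KO and -0.06 under FceRIa KO. Club cell markers, of the secretory cells beside ciliated cells, had 0.02, 0.11 and 0.10, with Scgb1a1 at 8.18 and 8.20 on the wild type PBS and HRF arrays. Goblet cell markers, of mucus-making cells, had 1.60, 1.35 and 0.02. Among these Clca1 was at 4.40 and 6.57 in wild type, 4.88 and 6.78 under FcRg KO, and 4.14 and 3.73 under FceRIa KO. Muc5b, the next brightest, was at 4.83 and 4.83 in wild type, 4.49 and 4.48 under FcRg KO, and 4.48 and 4.11 under FceRIa KO. The goblet median was thus higher after HRF under both labels in which the cilia genes stood in opposite directions. In each of these labels 11 of 12 goblet markers were higher.

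Markers of large airway and neighbouring tissue moved between arrays too. Tracheal cartilage markers were lower after HRF in 9 of 9 in wild type (median -0.43) and in 9 of 9 under FcRg KO (median -0.95). Basal cell markers of large airways had medians of -0.16, -0.81 and 0.26 in wild type, FcRg KO and FceRIa KO. The log2 summed level of the cartilage list was 2.48 and 2.0 on the PBS and HRF arrays of wild type, 2.49 and 1.56 under FcRg KO, and 2.18 and 2.28 under FceRIa KO. For the basal list it was 3.17 and 2.95, 2.91 and 2.41, and 2.80 and 2.91. All 7 measured basal markers and 7 of 12 cartilage markers were well above background on all arrays. Cardiac muscle markers of the pulmonary vein and atrium had medians of -0.37, -0.90 and -0.16. Neuroendocrine markers had -0.24, -0.24 and 0.07, and fat markers -0.12, -1.27 and 1.14. Under FcRg KO all of these lists were lower after HRF while the cilia genes were higher. Airway gland and nasal secretory markers went the other way, with medians of 0.42, 0.12 and 0.26. Of these, 5 of 8 were higher under FcRg KO. Markers of alveolar type 2 cells, which make surfactant, had 0.02, 0.17 and 0.21, with 11 of 12 higher under FcRg KO, so their median there was close to the members' 0.16. The part of the tissue sampled in the differences of the cilia genes was not tested.

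**Figure D4:**
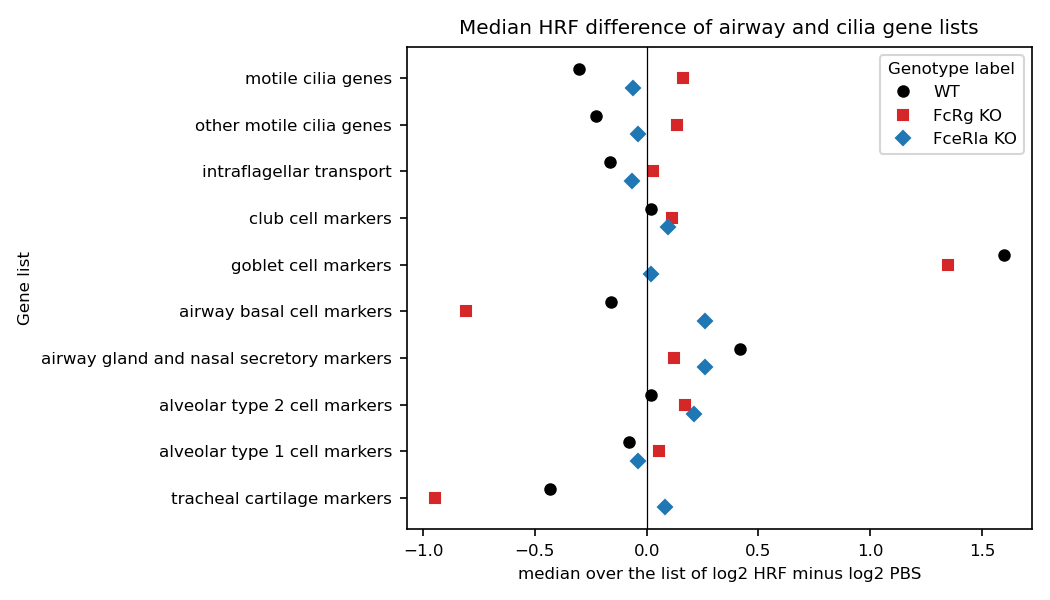
Points give the median over each gene list of the log2 HRF level minus the log2 PBS level, by genotype label, with 1 array per group. Both cilia lists lie to the left in wild type and to the right under FcRg KO (-0.30 and 0.16 for the members, -0.23 and 0.14 for the other motile cilia genes), while goblet markers lie at 1.60 and 1.35.

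A fit over all 6 arrays took genotype and challenge as additive terms, with 2 residual degrees of freedom. The spread it tests against is the difference of the HRF response between genotypes, not the spread between mice. The members' average HRF effects had a median of -0.06 and ran from -0.28 for Spag17 to 0.26 for Foxj1. By limma with Benjamini-Hochberg adjustment over 17601 genes, 0 members passed 0.05 (lowest adjusted p = 0.557), 0 were under an unadjusted 0.05, and 0 of all genes passed (1552 unadjusted, or 8.82%). Leaving out the wild type pair turned the members' median to 0.06, with 0 members past the threshold. The effects of the knockout labels against wild type had member medians of -0.05 and 0.00 for FcRg KO and FceRIa KO. By limma 0 members passed in either and 0 were under an unadjusted 0.05, where 13.4% and 12.9% of all genes were. After adjustment, 0.00568% of all genes passed as higher and 0.142% as lower under FcRg KO, and 0% under FceRIa KO. FcRg KO against FceRIa KO had a member median of -0.04, with 0 members past the adjusted threshold, where 0.017% of all genes passed as higher and 0.131% as lower, and 0 under an unadjusted 0.05, where 9.34% of all genes were.

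The difference of responses was tested by an interaction term, with 1 residual degree of freedom. The wild type response was below that of the other labels in 31 of 33 members and in 9594 of all 17601 genes. The members' median was -0.37, against -0.03 over all genes. The adjusted p was 0.569 at the lowest, so 0 members passed (limma). Unadjusted, 7 were under 0.05, against 8.67% of all genes: Spag17 (-1.0, SE 0.18), Dnah9, Tekt2 (-0.83, SE 0.18), Cfap44 (-0.63, SE 0.16), Ccno (-0.54, SE 0.13), Sntn (-0.52, SE 0.14) and Mcidas (-0.47, SE 0.13). Dnah9 was within background on the arrays it is compared with.

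For FcRg KO, 32 of 33 members had a response above that of the other labels, with a median of 0.33 against 0.02 over all genes, and 0 passed (limma, lowest adjusted p = 0.804). Spag16 was the 1 member under an unadjusted 0.05, where 5.83% of all genes were. For FceRIa KO, 16 members were above and 17 below, with a median of -0.01, 0 passed, and 0 were under an unadjusted 0.05 (3.45% of all genes). Of all 17601 genes, 9308 had a response above that of the other labels for FcRg KO and 8879 for FceRIa KO. These fits share their arrays, and their counts are not independent of each other.

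The other motile cilia genes were tested in the additive fit, and 0 of 87 passed for the average HRF effect. Unadjusted, 3 were under 0.05 (limma), where 8.82% of all genes were. Of these 87 genes 57 had an estimate below 0 and 30 above, where 9652 of all 17601 genes were below 0. The lowest effects were those of Dnaaf6 (-0.84), Tekt3 (-0.55), Myb (-0.36), a transcription factor early in the programme, and Ttc25 (-0.36), an outer arm docking protein. Dnaaf6 and Tekt3 were well above background on 1 and 2 arrays. Myb was at 1.49 and 0.49 in wild type, 1.01 and 1.11 under FcRg KO, and 1.21 and 1.03 under FceRIa KO, so that wild type HRF alone was low. The highest effects were those of Cfap53 (0.28), Cfap206 (0.26), Cfap74 (0.24) and Capsl (0.18).

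Of 12438 genes compared with the members' median profile over the 6 arrays, the 10 most alike outside the members were Mical2 (Pearson r = 0.99), Ccdc88c, Lhx6, Lrrc74b, Usp17la, 9430060I03Rik, Dnah10, H4c8, Ptpdc1 and Pex5l (r = 0.97). Dnah10, an inner arm dynein heavy chain, is on the list of other motile cilia genes. It was at 0.81 and 0.33 in wild type, 0.33 and 0.68 under FcRg KO, and 0.67 and 0.55 under FceRIa KO. The 100 most alike held 10 of the 69 other motile cilia genes compared. With 6 points, 129 genes reached an r of 0.9, and the likeness is a description.

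Members with and without the RFX half-site in their promoter differed little in response. In wild type the medians were -0.30 for the 14 with it and -0.31 for 14 without. Under FcRg KO they were 0.13 and 0.17, and under FceRIa KO -0.10 and -0.07. The split rests on the half-site word alone, so Tekt4, which has the palindrome but not that word, is among those without. The 5 members with more than 1 half-site had wild type differences of -0.68 (Cfap44), -0.62 (Tekt2), -0.31 (Fam183b), -0.14 (Spag16) and 0.02 (Tekt1).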

How the data were processed

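Whole lung RNA was measured on 6 arrays, 1 per group, all on 1 slide and scan, so no batch could be compared. Per the file headers, Agilent Feature Extraction 10.7.3.1 read the scans. The authors deposited its processed signal, an intensity with background subtracted and detrended within each array and with no scaling between arrays, per the file headers. The deposited spot and background intensities are medians and served normexp, which is usually run on spot means. The deposited value table holds log2 values with 1 decimal and unstated centring. Its differences matched those of the scanner files (r of 0.997 to 0.998 over probes), which settles scale and direction, and its column medians were 0.1 for wild type PBS and 0 for the others.

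The value used was the log2 ratio of the processed signal to the 75th percentile of its array. Control spots and outlier spots were left out and spots of 1 probe averaged. Of 55681 probes, 26056 were named through their RefSeq accession with the GRCm38.p6 gene table, which gave 19749 genes; 29625 stayed unnamed. The brightest probe stood for a gene (5269 genes had several). A gene was compared when well above background on at least 1 array compared. Levels were compared within a gene only. limma 3.58.1 in R 4.3.3 (lmFit, eBayes, Benjamini-Hochberg 0.05) gave the tests and was checked on simulated data. Other steps used Python 3.11.15, numpy 2.4.6, pandas 2.3.3 and matplotlib 3.10.9. 0 columns belonged to unknown samples.

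Members and gene lists were chosen with earlier results of these data known. Named besides the members were the 4 highest and 4 lowest average HRF effects among other motile cilia genes, the 10 genes most like the members' median profile, and up to 2 of the brightest genes of another list. Alternatives were normexp (offset 50) with quantile normalization, the value table, median scaling, other filters, the mean of probes, 2-fold calls, each genotype left out and, added after seeing the data, quantile normalization of the processed signal and members at a level of 0 or above.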

Additional observations from a re-analysis of the deposited data

Results flagged for a closer look

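The HRF difference of the motile cilia genes took opposite directions under the genotype labels. Its median over members was -0.30 in wild type, 0.16 under FcRg KO and -0.062 under FceRIa KO. Each label has 1 HRF and 1 PBS array, and so 1 difference. The direct difference between wild type and FcRg KO, and that between FcRg KO and FceRIa KO, were not tested. Each label was tested against the mean of the other labels by an interaction term, and 0 of 33 members passed in any of these fits (limma, lowest adjusted p = 0.569).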

How the results depend on the processing

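Of the summary values set against alternatives, 267 stayed within 0.1 (medians, log2) or 1.5 times (counts), 28 moved further, and 1 median of 0.1 or more changed sign. Counting sizes under 0.1 too, 7 of 108 medians changed sign, among them the average HRF effect under median scaling (0.016 in place of -0.061). Of the values of single members, 405 stayed within 0.1, 80 moved, 33 of them under median scaling, and 0 that were past 1.5-fold changed sign. Median scaling, which shifts all genes compared with the wild type PBS array, gave member medians of -0.080 for HRF in wild type, 0.039 (reversed from -0.23) for FcRg KO against wild type on PBS and 0.17 (from -0.064) for FceRIa KO. In the limma fits it gave 0.092 for FcRg KO and 0.15 for FceRIa KO against wild type, and response differences of -0.15 for wild type and 0.16 for FcRg KO. Members at least 1.5-fold lower after HRF in wild type numbered 1 with normexp, 2 with median scaling, 2 with quantile normalization and 1 at 2-fold, in place of 4. Of all 17431 genes compared, 297, 813 and 936 were lower by 1.5-fold under the first 3 of these settings, in place of 1586. For FcRg KO against wild type on PBS the members lower numbered 1, 2, 3 and 2 in place of 5, and for FceRIa KO 1 with normexp, quantile normalization, the mean of probes, the filter on every array or 2-fold in place of 2. Under the mean of probes 1 member was called higher after HRF under FcRg KO (1 in the value table too) and 1 lower under FceRIa KO, and 1 lower on the HRF array of either KO label against wild type, in place of 0. All genes called higher under FcRg KO numbered 585 of 16597 under the mean of probes and 656 of 16591 in the value table. Under FceRIa KO 428 of 16323 were lower under the mean of probes. For FceRIa KO against wild type on HRF, 1 member was higher in the value table and 1 with median scaling, in place of 0, and Tekt2 under FcRg KO did not reach 2-fold (0 members). Without the wild type pair the median average HRF effect was 0.059. The cause of these shifts was not tested beyond what each setting changes by construction. The additive fit already pairs the HRF and PBS arrays of each genotype. Beyond that no block by replicate number could be fitted, since each group has 1 array and the labels carry no numbers. No replicate could be left out. Spag17, Spag16, Lrriq1 and Dnah9, all at levels under -3, are limited by signal over background.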
